A study of Mus musculus with 4 samples.

Results

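Heart muscle cell nuclei of the 2 libraries labelled Pkp2 cKO were compared by whether they held transcripts counted for Esr1, the estrogen receptor alpha gene. A nucleus entered with at least 3000 unique molecular identifiers (UMIs, each standing for 1 captured RNA molecule), with at most 5% of them from mitochondrially encoded genes, and with at least 4% of them from the 7 heart muscle genes Ttn, Myh6, Ryr2, Tnnt2, Actn2, Mybpc3 and Ctnna3. Of 41706 barcodes in the series, 2364 nuclei of the cKO libraries met the rule, 985 in cKO 1 and 1379 in cKO 2. Nuclei with at least 3 Esr1 UMIs (584 and 919, 1503 in all) were set against nuclei with 0 (298 and 338, 636 in all) within each library. The 103 and 122 nuclei with 1 or 2 Esr1 UMIs stayed out of the test and are described separately. The classes were thus chosen by measured values, the counts of Esr1, of the muscle genes and of mitochondrial genes, so none of these is a result, and Esr1 was left out of all sums.

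Whole mouse hearts gave 4 single-nucleus RNA libraries on BD Rhapsody, where RNA is captured nucleus by nucleus on barcoded beads. The control libraries are titled MCM cre/+ with a genotype tag of wt, and the cKO libraries PKP2fl/fl MCM cre/+ with a tag of pkp2 cko. All mice were 8 weeks old, all received tamoxifen, and hearts were taken 2 weeks later. By the design text each library pooled 2 mice, 1 male and 1 female (counts of sex-linked genes, given below, go against a mixed pool), so a library is the replicate (n = 2 per group) and its nuclei are not. The labels do not spell out MCM, name the promoter of the Cre, or say which part of Pkp2 is floxed. The cell type tag reads cardiomyocyte and the protocol speaks of a sort on a nuclear pore antibody with a gate for neuronal nuclei. Even so, 193 and 835 cKO nuclei of at least 3000 UMIs had under 1% of UMIs from the heart muscle genes.

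Pkp2 encodes plakophilin 2, a plaque protein of the desmosome, the junction that couples heart muscle cells mechanically, and its loss is a known cause of arrhythmogenic cardiomyopathy. In mouse heart genetics MCM commonly names MerCreMer, a Cre recombinase between mutated hormone-binding domains of the estrogen receptor, which enters the nucleus when tamoxifen binds. Counts per gene do not tell a transcript of Esr1 from that of a transgene carrying part of it, and likewise for any other gene whose pieces are used in transgenes. Strained heart muscle cells are known to raise the natriuretic peptides Nppa and Nppb, beta myosin heavy chain (Myh7), skeletal alpha-actin (Acta1) and Ankrd1, a set often called the fetal programme.

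The spread of Esr1 was wide in the cKO nuclei. Of gated nuclei, 59.3% in cKO 1 and 66.6% in cKO 2 held at least 3 Esr1 UMIs and 30.3% and 24.5% held none. The median in the class with Esr1 was 25 and 24 UMIs, the highest nuclei had 239 and 258, and 244 and 396 nuclei had at least 30. In control libraries, 3.14% of 924 and 2.83% of 2011 gated nuclei reached 3 Esr1 UMIs, and the highest held 25 and 26. Close to the Esr1 threshold there were 33 and 45 cKO nuclei with 2 UMIs and 11 and 35 with 3. Close to the muscle gate there were 65 and 97 cKO nuclei with 3 to 4% muscle UMIs and 162 and 329 with 4 to 5%. A count of 0 at these depths is a lack of detection and not proof that a nucleus has no transcript.

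**Figure D1:**
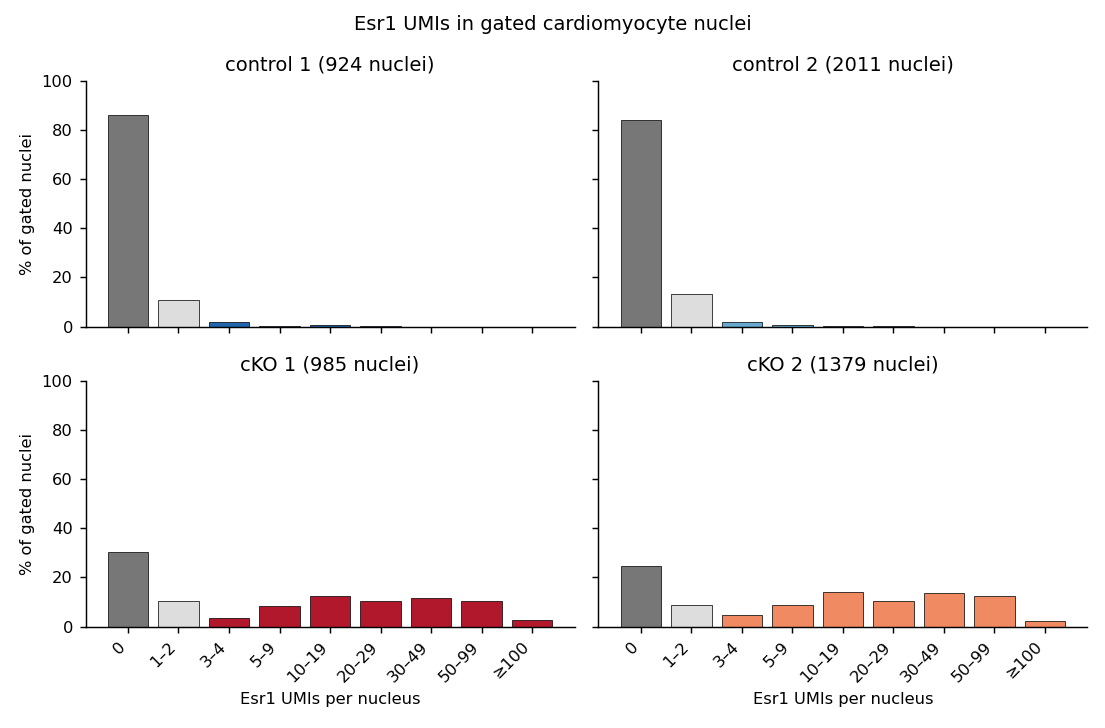
Percent of gated nuclei in each class of Esr1 UMIs, for the 2 control and the 2 cKO libraries. Controls sit almost wholly at 0 to 2 UMIs (86.0% and 83.9% at 0), whereas cKO nuclei fall into a group at 0 (30.3% and 24.5%) and a broad group reaching 100 UMIs or more.

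The 2 classes were alike in what the gate and depth measure. Median UMIs per nucleus were 5092.5 with and 5035.5 without Esr1 in cKO 1, and 6155 and 6081.5 in cKO 2. The muscle genes took a median of 5.96% and 5.94% of UMIs in cKO 1 and 5.79% and 5.66% in cKO 2. Pooled markers of 9 other cell types (59 genes, among them Dcn and Col1a1 of fibroblasts, Pecam1 of endothelium and C1qa of macrophages) summed to 2448 against 2381 CPM (counts scaled to a common total) in cKO 1 and 2510 against 2401 in cKO 2. None of the 37 markers tested passed in either direction, where 1.44% of all genes did, and their median log2 fold change was -0.07. Fibroblast markers made up most of the pool, at 1685 CPM with Esr1 in cKO 1. Endothelial markers summed to 296 against 374 CPM in cKO 1 and 327 against 337 in cKO 2. Macrophage markers summed to 76.6 against 79.4 and 88.3 against 53.4 CPM. The median mitochondrial share was higher with Esr1 in both libraries, at 1.12% against 0.990% and 0.961% against 0.802%. In nuclei with at most 1% mitochondrial UMIs, 94 genes were called higher and 103 lower between the classes, of which 68 and 70 were among the 88 and 91 called in all gated nuclei. Of 25 named genes tested there, 23 kept the call, and Clcn1 and Efnb3 lost it. Nuclei with a UMI of a Y-linked gene were 85.4% and 84.6% in cKO 1 and 88.7% and 89.3% in cKO 2. Xist, which silences 1 X chromosome in female mice, gave 5 UMIs over all gated nuclei of cKO 1 and 7 in cKO 2, and 3 and 5 in the controls. These values go against a pool of 1 male and 1 female mouse in each library, and the cause was not tested. Libraries shared at most 2 cell labels in all and 0 among gated nuclei.

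Pkp2 transcript did not pass the test between the classes. Pkp2 (chromosome 16, plus strand, 16213318 to 16272712) measured 613 CPM with and 656 without Esr1 in cKO 1, 578 and 628 in cKO 2, and 542 and 536 in control nuclei with 0 Esr1 UMIs. It was a little lower with Esr1 in both libraries, a log2 fold change of -0.10 (SE 0.05, edgeR adjusted p = 0.493). All 4 cKO values lay above both control values. Since neither the floxed part nor the counted part of the gene is given, these counts do not check the deletion in either class, and the libraries are named by their label.

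The nuclei with Esr1 had far more Gh, A1cf and Chst8 transcript and 3.55-fold more Myh7 than the nuclei without. They had less of other stress genes of the heart, among them Gdf15, Acta1, Nppa, Ankrd1 and Nppb, and of Pak3, Tgfb2 and Bcl2. They had more of Stc2, Clcn1, Angpt1 and Ces1d. Among 12393 genes tested on the 4 sums with the library as a block, edgeR called 88 higher (0.71%) and 91 lower (0.734%) at an adjusted p under 0.05, or 1.44% in all, against a median log2 fold change of 0.00 over all genes. The calls held 2 genes of the gate (Mybpc3, -0.19, and Ctnna3, 0.16) and the mitochondrial genes mt-Co1 (0.20) and mt-Co2 (0.17), which the rule used. CPM of the classes did not overlap in 28.6% of all genes tested. Calls were lost in subsets split by depth. These held fewer nuclei and UMIs than the whole, so depth and smaller sums cannot be told apart. Of the 27 named genes, 17 passed the threshold and 10 missed it in nuclei under 6000 UMIs. At 6000 or more, 14 passed, 10 missed it and the rest were not tested. Stc2, Clcn1, Efnb3, Gm36703, Gm36569 and Gm56926 missed it in both. Acta1, Ankrd1 and Pak3 missed it at 6000 or more, and Bcl2 under 6000. The calls rest on the pairing within library: without the block edgeR called 3 genes, Gh, A1cf and Myh7. DESeq2 with the block called 40 of the 860 genes it gave an adjusted p (4.65%), each of them also called by edgeR. Of the 27 named genes, only 3 had an adjusted p from DESeq2, and these kept the call. It says nothing on the rest. In nuclei with at most 0.5% of UMIs from other cell types' markers, 123 genes were higher (1.01%) and 142 lower (1.17%) among 12156 (2.18% in all).

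Gh, which encodes growth hormone and is known from the pituitary, differed the most among the genes named (chromosome 11, minus strand, 106300271 to 106301865). It measured 218 CPM (713 UMIs) with Esr1 and 1.83 CPM (3 UMIs) without in cKO 1, and 133 CPM (811 UMIs) against 2.21 CPM (5 UMIs) in cKO 2. Control nuclei with 0 Esr1 UMIs gave 1.87 and 0.445 CPM. Both values with Esr1 stood far above all others, and cKO nuclei without Esr1 were near the control level. The log2 fold change was 6.35 (SE 0.21, edgeR adjusted p = 1.78e-11). Gh and Myh7 had been singled out from earlier results of these libraries, so their order among the genes is no independent evidence. Whether part or all of the Gh counts comes from a transgene was not tested, so they do not show growth hormone expression by heart muscle.

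A Gh UMI was found in 57.9% (95% exact binomial interval 53.8 to 61.9) of nuclei with Esr1 in cKO 1 and in 48.3% (45.04 to 51.6) in cKO 2. Without Esr1 the shares were 1.01% and 1.18%, and in cKO nuclei with under 1% muscle UMIs they were 0.518% and 0.599%, at median depths of 3755 and 3799 UMIs. After thinning each nucleus to 3000 UMIs the shares with Esr1 were 41.3% and 29.7%, against 0.336% and 0.296% without. The level without Esr1 was thus close to that of nuclei that should lack muscle transcripts. No nucleus of the compared classes held more than 13 Gh UMIs, and the richest held at most 1.68% of those of its class with Esr1. Of the 20 tested genes within 500000 bases of Gh, 0 passed the test in either direction. Among all genes tested 1.44% passed, so this count does not show that Gh moved alone. Intervals of counts and shares here cover counting error only.

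A1cf, which encodes a cofactor of apolipoprotein B RNA editing known from liver and gut, was all but missing outside the nuclei with Esr1 (chromosome 19, plus strand, 31868764 to 31948995). It measured 20.8 CPM (68 UMIs) with and 0.611 CPM (1 UMI) without Esr1 in cKO 1, and 19.99 CPM (122 UMIs) and 0.441 CPM (1 UMI) in cKO 2, with 0 and 0.445 CPM in control nuclei. The pooled ratio of CPM was 39.6 (95% counting interval 10.8 to 329), and the edgeR test gave an adjusted p of 1.1e-05. Of nuclei with Esr1, 6.34% and 5.44% held an A1cf UMI, and of nuclei without, 0.336% and 0.296%. Prkg1, a cGMP-dependent protein kinase whose gene lies next to A1cf, was higher as well, at 2536 against 2021 CPM and 3248 against 2358 CPM (log2 fold change 0.41, SE 0.04, edgeR adjusted p = 2.58e-05). It was the only one of 4 tested genes within 500000 bases of A1cf to pass, where 1.44% of all genes tested did. As background, the insertion of a Myh6-driven MerCreMer transgene has been mapped to A1cf in a widely used mouse line. The labels do not name the line of these mice, and whether it is the same was not tested.

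Chst8, which encodes a sulfotransferase that acts on pituitary glycoprotein hormones, followed with few counts (chromosome 7, minus strand, 34674468 to 34812711). There were 48 UMIs (14.7 CPM) with Esr1 and 0 without in cKO 1, and 50 (8.19 CPM) against 3 (1.32 CPM) in cKO 2, with 0.800 and 0.779 CPM in control nuclei. Both values with Esr1 lay above the other 4. Its pooled ratio was 13.6 (counting interval 4.52 to 67.1), with an edgeR adjusted p of 0.00349. The UMIs were spread over 40 and 45 nuclei, at most 2 in any. None of its 7 tested neighbours within 500000 bases passed, where 1.44% of all genes tested did.

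Myh7, the slow beta myosin heavy chain of the fetal ventricle, had the largest fold among the named genes of muscle contraction (chromosome 14, minus strand, 54970684 to 54994626). It measured 2133 CPM with and 582 without Esr1 in cKO 1, 1547 and 458 in cKO 2, and 316 and 213 CPM in control nuclei with 0 Esr1 UMIs. The order was the same in both libraries: highest with Esr1, then cKO nuclei without, then control, with no overlap between the 3 classes. The log2 fold change was 1.83 (SE 0.05, edgeR adjusted p = 1.12e-12). A Myh7 UMI was present in 95.2% and 93.9% of nuclei with Esr1, in 65.1% and 66.3% of nuclei without, and in 11.92% and 11.98% of cKO nuclei with under 1% muscle UMIs.

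Most tested genes around Myh7 did not pass. Myh6, the adult alpha myosin heavy chain beside it and a gene of the gate, gave 18365 against 17293 CPM and 14773 against 14304 CPM and did not pass (log2 fold change 0.08, edgeR adjusted p = 0.259). Mhrt, a noncoding RNA antisense to Myh7, was higher by 0.21 on the log2 scale (adjusted p = 0.00114), at 9952 against 8770 and 8360 against 7170 CPM. It was the only one of 18 tested genes within 500000 bases to pass, where 1.44% of all genes tested did. Log2 fold changes of the 18 ran from -0.86 to 0.59. Strand handling is not given, so reads of Mhrt and of the myosin genes it overlaps cannot be told apart. Whether part of the Myh7 counts comes from a transgene was not tested.

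**Figure D2:**
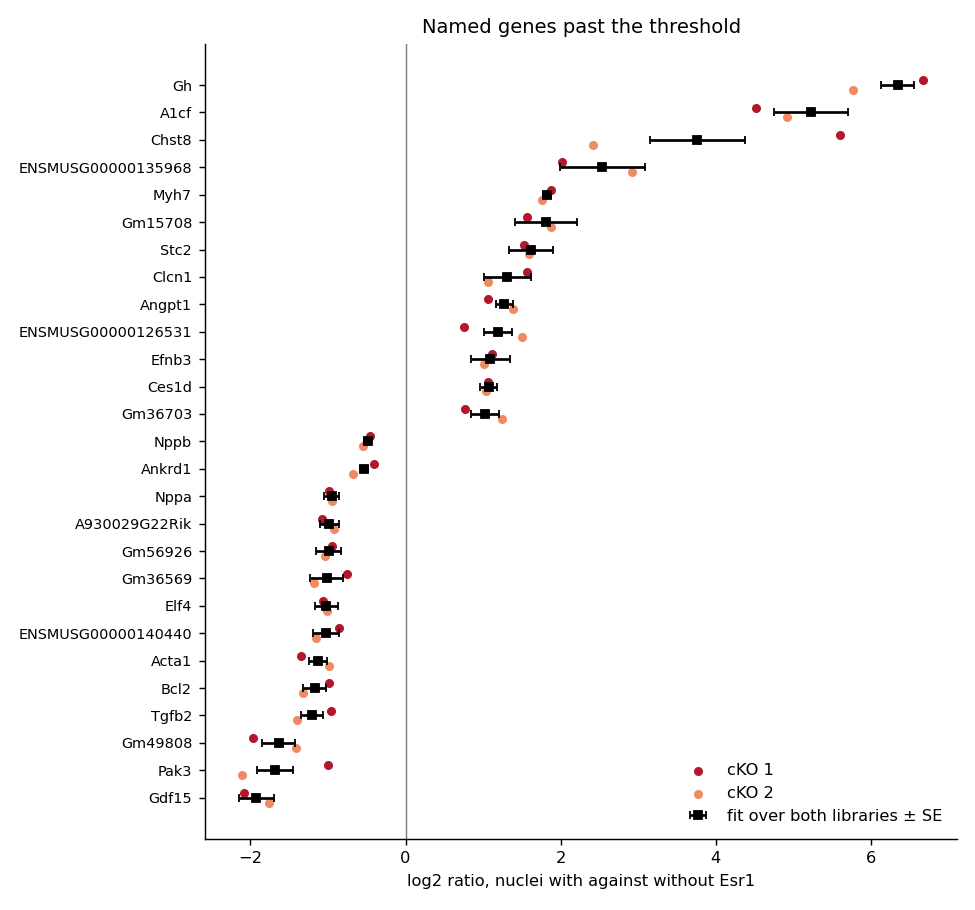
Log2 ratio of nuclei with against without Esr1 for the 27 named genes past the threshold: coloured points are the 2 cKO libraries, and black squares with bars are the edgeR fit with its SE. All genes lie on the same side of 0 in both libraries, which naming by the largest changes required. Gh lies at 6.35 and Gdf15 at -1.92.

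Further genes higher with Esr1 include secreted factors, a channel and an enzyme. Stc2, which encodes the secreted glycoprotein stanniocalcin 2 (chromosome 11, minus strand, 31357307 to 31370074), measured 23.6 against 7.94 CPM in cKO 1 and 13.9 against 4.41 in cKO 2, a log2 fold change of 1.62 (SE 0.28, edgeR adjusted p = 0.00611). Control nuclei gave 26.4 and 14.6 CPM, so the nuclei without Esr1 were the low class. Angpt1, the angiopoietin that activates the Tie2 receptor of vessels (chromosome 15, minus strand, 42424723 to 42676977), gave 112 against 53.8 and 154 against 58.7 CPM (log2 fold change 1.28, SE 0.11, adjusted p = 8.08e-06). Its control values were 145 and 192 CPM. In cKO nuclei with under 1% muscle UMIs, Stc2 measured 42.1 and 34.5 CPM, above both classes of muscle nuclei. Angpt1 measured 105 and 112 CPM there, between the 2 classes. How far RNA from other cells adds to these counts was not tested.

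Clcn1, the chloride channel of the muscle membrane (chromosome 6, plus strand, 42286685 to 42315756), gave 13.5 against 4.28 and 14.3 against 6.62 CPM, with 50.1 and 53.2 CPM in control nuclei (1.31 on the log2 scale, SE 0.31, adjusted p = 0.0438). Both cKO classes lay well below the controls, the class without Esr1 furthest. The carboxylesterase Ces1d, a lipid hydrolase (chromosome 8, plus strand, 93166068 to 93197838), gave 126 against 59.9 and 88.5 against 42.8 CPM (1.07, SE 0.11, adjusted p = 3.23e-05) and 250 and 188 in controls. The membrane-bound ligand Efnb3 gave 17.8 against 7.94 and 19.006 against 9.27 CPM (1.09, adjusted p = 0.0425).

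Of the remaining named genes that were higher, GENCODE M21 lists Gm15708 as sense intronic, a noncoding class, and has no entry for the others. Gm15708 (1.81), ENSMUSG00000126531 (1.19) and Gm36703 (1.02) passed with edgeR adjusted p of 0.0335, 0.00176 and 0.00637. ENSMUSG00000135968 (2.54, adjusted p = 0.0255) passed in all gated nuclei and was not tested in those with few markers of other cell types. It rested on few nuclei: up to 91.7% of its UMIs in the class with Esr1 came from 1 nucleus, and without that nucleus it was too low to be tested. Over 25% of the UMIs of the higher class came from 1 nucleus in 1 of the 88 genes called higher, this one, and in 3 of the 91 called lower. When the richest nucleus of each gene was left out, 87 of the 88 higher and 89 of the 91 lower genes were still called. That setting was added after the counts of Fgf12, given below, had been seen.

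Gdf15, a secreted cytokine of the integrated stress response, was the gene named with the largest fall in nuclei with Esr1 (chromosome 8, minus strand, 70629393 to 70632456). It measured 10.4 CPM with and 44.6 without Esr1 in cKO 1, 6.23 and 21.2 in cKO 2, and 1.33 and 1.22 CPM in control nuclei. Nuclei without Esr1 were highest in both libraries, and nuclei with Esr1 still lay above the controls. The log2 fold change was -1.92 (SE 0.22, edgeR adjusted p = 0.000101), that is 3.79-fold lower with Esr1. A Gdf15 UMI was found in 3.94% and 2.503% of nuclei with Esr1 and 10.1% and 7.10% of those without, against 1.55% and 0.599% of cKO nuclei with under 1% muscle UMIs.

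Acta1, the actin of skeletal muscle that the fetal heart also uses (chromosome 8, minus strand, 123891769 to 123894751), measured 49.02 against 125 CPM in cKO 1, 52.9 against 105 in cKO 2, and 21.9 and 13.6 in controls. It was lower with Esr1 by 1.13 on the log2 scale (SE 0.12, edgeR adjusted p = 2.6e-05). Nppa, the atrial natriuretic peptide (chromosome 4, plus strand, 148000722 to 148002079), gave 57.9 against 115 and 75.5 against 146 CPM, and 7.73 and 10.9 in controls (log2 fold change -0.95, SE 0.10, adjusted p = 2.47e-05). For both genes the 3 classes did not overlap: nuclei without Esr1 were highest, nuclei with Esr1 next and control nuclei lowest. Nppa also marks atrial muscle cells, whose markers the pool of other cell types leaves out. The atrial markers summed to 61.9 against 124 CPM in cKO 1 and 78.5 against 153 in cKO 2, most of it Nppa. Of 2 tested, 0 were higher and 1, Nppa, was lower (median -1.09), where 0.734% of all genes were lower. Whether the classes differ in heart chamber was not tested.

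Nppb, the B-type natriuretic peptide (chromosome 4, plus strand, 147985788 to 147987205), and Ankrd1, a nuclear and sarcomeric ankyrin protein that responds to stretch (chromosome 19, minus strand, 36111961 to 36120099), differed less in fold. Nppb gave 702 against 967 CPM in cKO 1, 427 against 622 in cKO 2, and 129 and 73.7 in controls (log2 fold change -0.49, SE 0.05, edgeR adjusted p = 2.93e-05). Within each library Nppb was lower with Esr1, although the 702 CPM with Esr1 in cKO 1 exceeded the 622 CPM without in cKO 2. Ankrd1 gave 1599 against 2116 and 1263 against 2013 CPM, and 646 and 500 in controls (log2 fold change -0.53, SE 0.05, adjusted p = 1.96e-05). Nmrk2, the muscle nicotinamide riboside kinase, did not pass between the classes, at 30.9 against 19.6 and 14.6 against 19.4 CPM (0.12, adjusted p = 0.916), and its direction differed between the libraries.

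Promoters of some of these stress genes and of Myh7 are shown because the Myh7 counts were higher with Esr1 and those of the others lower. The source of the Myh7 counts was not tested, so a split within 1 programme is not shown. They are 300-base RefSeq windows on GRCm38.p6, from 250 bases before to 50 after a transcript start. Capitals mark the MCAT element, CATTCC on each strand, which TEAD factors of the YAP pathway bind, and the CArG box that serum response factor binds. The windows are Acta1 at chr8:123894726-123895025, minus strand, Ankrd1 at chr19:36119795-36120094, minus strand, Nppa, which holds neither motif, at chr4:148000472-148000771, plus strand, Nppb at chr4:147985650-147985949, plus strand, and Myh7 at chr14:54994577-54994876, minus strand.
Acta1: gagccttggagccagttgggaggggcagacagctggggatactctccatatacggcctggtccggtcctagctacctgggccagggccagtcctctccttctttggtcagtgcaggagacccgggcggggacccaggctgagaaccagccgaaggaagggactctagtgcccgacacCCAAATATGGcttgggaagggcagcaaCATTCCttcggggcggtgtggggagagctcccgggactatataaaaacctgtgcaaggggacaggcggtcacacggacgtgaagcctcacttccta
Ankrd1: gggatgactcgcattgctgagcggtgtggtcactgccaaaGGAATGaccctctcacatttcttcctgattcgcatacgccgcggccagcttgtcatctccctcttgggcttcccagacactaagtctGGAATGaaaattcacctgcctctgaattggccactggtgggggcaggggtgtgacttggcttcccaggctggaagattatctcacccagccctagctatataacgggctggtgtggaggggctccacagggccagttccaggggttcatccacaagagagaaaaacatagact
Nppa: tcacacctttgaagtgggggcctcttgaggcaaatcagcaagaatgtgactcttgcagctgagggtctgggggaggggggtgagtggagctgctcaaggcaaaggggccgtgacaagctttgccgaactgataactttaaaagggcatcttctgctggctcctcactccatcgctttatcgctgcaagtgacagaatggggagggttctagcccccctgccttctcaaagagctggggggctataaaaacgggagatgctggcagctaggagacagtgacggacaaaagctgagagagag
Nppb: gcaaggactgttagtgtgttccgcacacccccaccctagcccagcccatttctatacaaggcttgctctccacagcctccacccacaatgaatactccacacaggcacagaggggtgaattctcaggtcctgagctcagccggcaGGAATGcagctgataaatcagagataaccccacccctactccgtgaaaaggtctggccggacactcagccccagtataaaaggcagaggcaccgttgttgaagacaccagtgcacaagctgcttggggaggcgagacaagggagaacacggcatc
Myh7: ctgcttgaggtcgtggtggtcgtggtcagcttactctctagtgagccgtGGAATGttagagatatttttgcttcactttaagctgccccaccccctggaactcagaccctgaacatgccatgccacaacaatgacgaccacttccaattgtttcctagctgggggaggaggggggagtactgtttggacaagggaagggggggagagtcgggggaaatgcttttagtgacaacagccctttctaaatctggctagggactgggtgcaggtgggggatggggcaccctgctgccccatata
Of the 27 called genes named, 7 of 13 higher and 10 of 14 lower were in the promoter table. MCAT was found in 16.6% of 27025 genes, in 5 of the 10 lower genes (Acta1, Gdf15, Nppb, Pak3 and Ankrd1, with 2 matches in its window) and in 1 of the 7 higher genes, Myh7. Genes with several starts count with any window: Gdf15 held MCAT in 1 of 2 windows, Pak3 in 1 of 3 and Myh7 in 1 of 2. The CArG box was in 1.81% of genes and in Acta1 alone. All motifs were searched on both strands. The full estrogen response element (AGGTCA, any 3 bases, TGACC), in 0.0555% of genes, and the ATF4 composite site TGATGCAA, in 1.03%, were in 0 of the named genes. The estrogen element's arm AGGTCA was in 18.1% of genes and in Elf4 and Gdf15. A match describes the letters of a window and is neither a binding site nor a cause.

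Signalling and survival genes were also lower with Esr1. Pak3, a p21-activated kinase (chromosome X, plus strand, 143518591 to 143797796), gave 14.4 against 28.7 CPM in cKO 1, 12.1 against 52.5 in cKO 2 and 2.93 and 5.34 in controls (log2 fold change -1.68, SE 0.23, edgeR adjusted p = 0.000545). Tgfb2, a TGF-beta ligand (chromosome 1, minus strand, 186622792 to 186705989), gave 36.5 against 70.9, 29.8 against 79.0, and 13.9 and 14.9 CPM (-1.20, SE 0.14, adjusted p = 0.000107). Bcl2, which blocks mitochondrial apoptosis (chromosome 1, minus strand, 106538178 to 106714274), gave 29.1 against 57.4, 28.5 against 71.0, and 10.1 and 14.4 CPM (-1.17, SE 0.15, adjusted p = 0.000203). In each of these 3 genes the cKO nuclei without Esr1 were highest and the control nuclei lowest in both libraries. In cKO nuclei with under 1% muscle UMIs, Bcl2 measured 116 and 135 CPM, above both classes of muscle nuclei, Pak3 23.5 and 45.6 CPM and Tgfb2 57.0 and 49.4 CPM. The part of RNA from other cells in these counts was not tested beyond the nuclei with few markers of other cell types. All 3 genes passed there too, but this was a condition for naming them, so it is no independent check.

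Elf4, an ETS transcription factor on chromosome X, gave 30.9 against 64.8 and 25.9 against 52.1 CPM, with 11.5 and 12.02 CPM in controls (-1.02 on the log2 scale, SE 0.14, adjusted p = 0.000841). Its level in cKO nuclei with under 1% muscle UMIs was higher, at 170 and 178 CPM. The other named genes that were lower are Gm49808 (-1.64), ENSMUSG00000140440 (-1.02), Gm36569 (-1.02), Gm56926 (-0.99) and A930029G22Rik (-0.98). Their edgeR adjusted p ran from 0.000226 to 0.02. Gm49808 and A930029G22Rik are listed as long noncoding RNAs, and ENSMUSG00000140440 and Gm56926 have no entry in GENCODE M21. GENCODE M21 lists Gm36569 as antisense, and without strand its reads cannot be told apart from those of the gene it overlaps.

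Other called genes outside the rule for naming were picked after their values were seen. Ugp2, which makes UDP-glucose for glycogen, gave 200 against 336 and 222 against 356 CPM (log2 fold change -0.70, edgeR adjusted p = 1.31e-05). Ptgds, a prostaglandin D synthase, gave 321 against 504 and 230 against 484 CPM (-0.86, adjusted p = 1.1e-05). The growth factor Hbegf (-0.55) and the titin-binding Ankrd23 (-0.66) were lower too.

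On the higher side, Fgf14, a regulator of sodium channels, gave 265 against 181 and 349 against 173 CPM (log2 fold change 0.83, edgeR adjusted p = 6.15e-05), with 384 and 407 in controls. Hopx, a homeodomain protein of the heart, gave 76.0 against 50.7 and 75.2 against 40.6 CPM (0.76, adjusted p = 0.00476). The splicing factor Rbfox1 (0.57), the muscle ribosomal protein Rpl3l (0.50), Tfpi, an inhibitor of tissue factor (0.71), and the interferon-induced Iigp1 (0.93) were higher. Fgf12 was called lower (-2.41, adjusted p = 0.000501) on 25 UMIs in 6 nuclei of cKO 1 and 41 UMIs in 3 nuclei of cKO 2. With its richest nuclei left out it was no longer tested, so its call describes a few nuclei and not the class.

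Among 19 gene lists chosen for heart muscle, the fetal and stress programme showed the most members past the test. Of its 17 tested members, 1 was higher with Esr1 (Myh7) and 8 were lower: Nppa, Nppb, Ankrd1, Acta1, Gdf15, Xirp2, Flnc and Des. Its median log2 fold change was -0.42, against 0.00 over all genes, of which 0.71% were called higher and 0.734% lower. The actin-binding Xirp2 of the intercalated disc gave 1265 against 1878 and 1779 against 2386 CPM (-0.48, edgeR adjusted p = 1.1e-05), the filamin Flnc had -0.42 (adjusted p = 0.012) and the intermediate filament desmin, Des, -0.46 (adjusted p = 0.00299). Part of this list had been seen to move in these libraries earlier, and no test was run on any list as a whole. Immediate early genes had 0 of 12 past the test, with 10 of 12 below 0 and a median of -0.21. Among them Fos gave 2.14 against 10.4 and 6.23 against 7.94 CPM (adjusted p = 0.374).

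Metabolic lists had fewer calls than the fetal and stress list, against 0.71% higher and 0.734% lower among all genes. Of 25 glycolysis and glucose genes, 3 were lower and 0 higher: the hexokinase Hk1 (-0.43), the phosphofructokinase Pfkp (-0.47) and the enolase Eno1 (-0.86), with edgeR adjusted p of 0.0387, 0.00637 and 0.0143 and a list median of -0.07. Eno1, for example, gave 21.1 against 37.9 and 21.8 against 40.6 CPM, and 10.4 and 14.8 in controls. Of 32 genes of fatty acid uptake and oxidation, 2 were higher and 0 lower, with a median of 0.14 and 27 of 32 above 0. Acsl1, which activates fatty acids, gave 379 against 313 and 447 against 345 CPM (0.34, adjusted p = 0.00695), and the lipoprotein lipase Lpl 1597 against 1412 and 1251 against 1087 CPM (0.20, adjusted p = 0.0234). None of the 21 nuclear genes of oxidative phosphorylation passed (median 0.06).

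Structural lists had calls in both directions, with medians near 0. Beside the counts stand 0.71% higher and 0.734% lower among all genes tested. Of 24 desmosome and intercalated disc genes, the desmosomal cadherin Dsg2 was higher, at 334 against 282 and 305 against 212 CPM (0.40, edgeR adjusted p = 0.00888), while Xirp2, Des and the Z-disc protein Pdlim3 (-0.37, adjusted p = 0.0413) were lower, with a median of -0.08. Of 28 sarcomere genes, Myh7, the titin cap Tcap (0.37) and palladin, Palld (0.32), were higher and Acta1 was lower, with a median of 0.00. Of 26 ion channel and calcium genes, Clcn1, the potassium channel Kcnj3 (0.52) and the sodium channel regulator Fgf13 (0.28) were higher, and 1 was lower, with a median of 0.03.

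Lists for estrogen, growth hormone and stress signalling were mostly without calls, where 0.71% of all genes tested were higher and 0.734% lower. At these shares a short list holds few calls in any case. None of 10 tested estrogen receptor target genes passed in either direction (median 0.09). Greb1, a classical target, gave 5.21 against 5.50 and 3.77 against 4.41 CPM. Of 25 genes of growth factor and hormone signalling, the mineralocorticoid receptor Nr3c2 was higher (0.33, edgeR adjusted p = 0.0181) and the IGF1 receptor Igf1r lower (-0.31, adjusted p = 0.0248). The growth hormone receptor Ghr did not pass, at 841 against 786 and 980 against 973 CPM. Of 17 YAP and load targets, Dlc1 was higher (0.51) and Ankrd1 and Tgfb2 lower. Gdf15 alone passed among 8 integrated stress response genes, and 0 of 15 p53, 0 of 16 heat shock and 0 of 18 clock genes did. Of 16 cell death genes, Bcl2 passed.

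**Figure D3:**
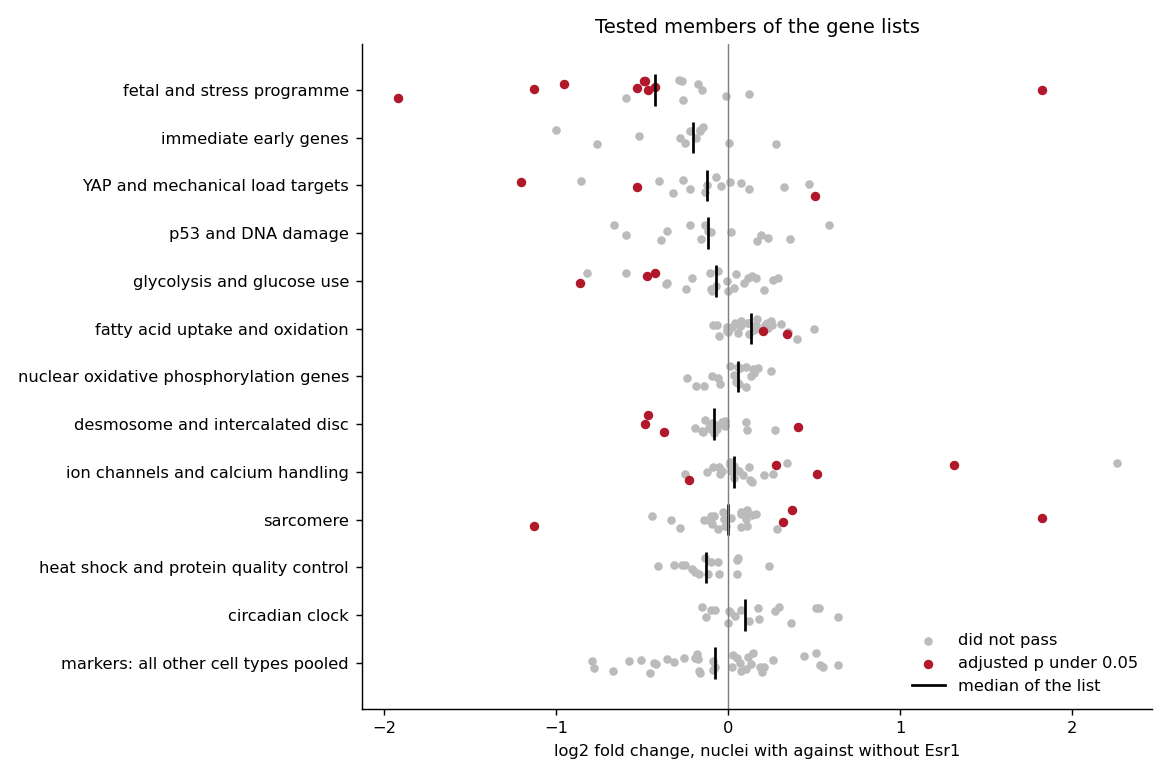
Log2 fold change with against without Esr1 of each tested member of 12 gene lists and of the pooled markers of other cell types, with members past an adjusted p of 0.05 in red and a bar at the list median. The fetal and stress programme lies mostly below 0 (median -0.42) with Myh7 apart at 1.83, and fatty acid genes lie mostly just above 0 (median 0.14).

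Levels were also followed over 5 ranges of Esr1 in the cKO nuclei: 0, 1 to 2, 3 to 9, 10 to 29, and 30 or more UMIs. Nuclei of a range share a library, so these values are a description with no test. Depth differed between the ranges, with medians of 4525 to 5652 UMIs in cKO 1 and 5523.5 to 7151.5 in cKO 2, highest at 30 or more Esr1 UMIs in both. Gh rose from range to range in both libraries, at 1.83, 6.97, 50.003, 159 and 328 CPM in cKO 1 and 2.21, 9.86, 29.3, 89.4 and 201 CPM in cKO 2. The counting intervals of Gh did not overlap between the 3 upper ranges. Thinning each nucleus to 3000 UMIs left the order of Gh the same in both libraries. Myh7 measured 582, 429, 1136, 1706 and 2840 CPM in cKO 1 and 458, 570, 673, 1286 and 2049 CPM in cKO 2. It therefore increased over the 3 upper ranges in both, while nuclei with 1 or 2 Esr1 UMIs lay below those with 0 in cKO 1 and above them in cKO 2. A1cf reached 32.2 and 30.7 CPM at 30 or more Esr1 UMIs.

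Gdf15, Acta1 and Ankrd1 were lower in nuclei with the most Esr1 than in nuclei without. Gdf15 measured 44.6, 22.7, 18.97, 8.59 and 8.55 CPM in cKO 1 and 21.2, 33.3, 11.0, 5.38 and 5.06 in cKO 2. Acta1 measured 125, 120, 63.8, 61.0 and 34.2 CPM in cKO 1 and 105, 82.6, 48.6, 64.0 and 46.9 in cKO 2. Ankrd1 measured 2116, 2425, 1705, 1913 and 1319 CPM in cKO 1 and 2013, 2044, 1688, 1389 and 1020 in cKO 2. In all 3 genes the top range was below the range at 0 in both libraries, also with nuclei thinned to 3000 UMIs. The steps between did not all go the same way: Gdf15, which fell at each step in cKO 1, no longer did so after thinning, at 16.2 CPM with 1 or 2 and 25.7 with 3 to 9 Esr1 UMIs. Angpt1 did not follow the steps, with 53.8, 57.5, 55.2, 124 and 125 CPM in cKO 1 and 58.7, 61.6, 158, 184 and 132 in cKO 2. Pkp2 stayed within 606 to 656 CPM in cKO 1 and 564 to 628 in cKO 2.

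**Figure D4:**
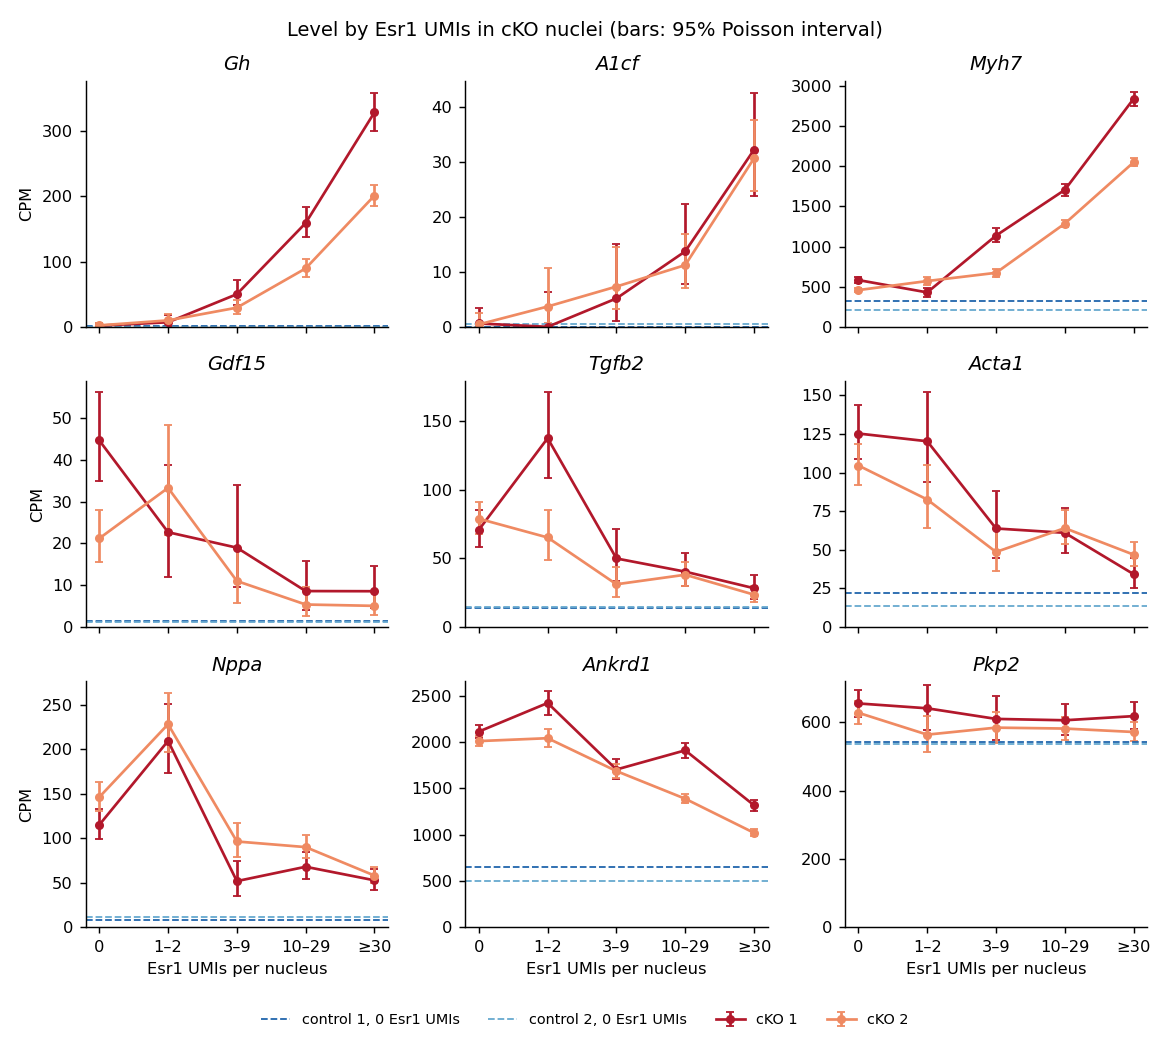
CPM of 9 genes over 5 ranges of Esr1 UMIs per nucleus in the 2 cKO libraries, with 95% Poisson intervals, and dashed lines for control nuclei without Esr1. Gh climbs at every step in both libraries, Myh7 climbs over the 3 upper ranges, and Gdf15, Acta1 and Ankrd1 end below the level of nuclei without Esr1.

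Each cKO class was next compared with gated control nuclei without Esr1 UMIs (795 and 1688 nuclei), to place the difference between the classes. These comparisons share the control sums with each other and the cKO sums with the one above, so their values are given side by side and nothing is read from how they match. Nuclei with Esr1 had 75 genes higher and 118 lower among 14348 (0.523% and 0.822%, 1.35% in all). Nuclei without Esr1 had 261 higher and 308 lower among 12657 (2.06% and 2.43%, 4.5% in all). Leaving out 1 library raised the counts of nuclei with Esr1, to 149 higher and 189 lower without cKO 2, 160 and 210 without control 1, and 114 higher without cKO 1. The 2 fits differ in the number of nuclei behind the sums, and the difference of these counts was not tested.

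The stress genes were above control in both classes of cKO nuclei. For Nppa the log2 fold change against control was 2.75 with and 3.69 without Esr1 (edgeR adjusted p = 0.00277 and 2.71e-05), for Nppb 2.44 and 2.92, for Ankrd1 1.28 and 1.79, for Acta1 1.53 and 2.68, for Gdf15 2.61 and 4.58 and for Tgfb2 1.14 and 2.31, all past the test. For Myh7 it was 2.75 with and 0.92 without Esr1 (adjusted p = 0.00277 and 0.0238). Of the fetal and stress list, 10 of 17 tested members were higher with Esr1 and 13 of 17 without, with medians of 1.28 and 1.33. The list's members had been seen to move between these libraries before, so these counts are no independent evidence. Immediate early genes had 2 of 13 higher with Esr1, where 0.523% of all genes were, and 5 of 12 without, where 2.06% were, so these counts do not compare the classes.

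Of the genes higher with Esr1 given here, Clcn1 and Ces1d passed as below control in both classes of cKO nuclei, and Angpt1 and Stc2 only in nuclei without Esr1. Clcn1 had log2 fold changes against control of -1.94 with and -3.26 without Esr1 (edgeR adjusted p = 0.00425 and 0.000128), and Ces1d of -1.08 and -2.16 (0.0481 and 0.000167). Angpt1 had -0.38 and -1.65, and Stc2 -0.16 and -1.79, where the values with Esr1 did not pass (adjusted p = 0.56 and 0.933) and those without did (0.000717 and 0.0301). Of fatty acid genes, 1 of 32 was lower with Esr1, where 0.822% of all genes were, and 7 of 32 without, where 2.43% were; the difference was not tested. Gh had a log2 fold change of 7.54 with Esr1 (adjusted p = 0.000716) and was too low to be tested without. A1cf (5.90, adjusted p = 0.00277) and Chst8 (3.74, adjusted p = 0.0099) were alike in this.

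The CPM of nuclei with Esr1 lay between those of control nuclei and of cKO nuclei without Esr1 for most genes that were lower. Of the 91 genes called lower with Esr1, 59 had both values with Esr1 between the other classes (64.8%), as had 38 of the 88 called higher (43.2%), against 8.26% of all genes tested. Called genes had to differ from the class without Esr1, which enters this count too, so the shares only describe the calls. Of the 88 genes called higher, 13 stood above both other classes, Gh, A1cf, Chst8, Myh7, Prkg1 and Gm15708 among them. Of the 91 called lower, 7 lay below both, Stk39 among them. Among all 12393 genes tested, 542 stood above both and 424 below both.

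**Figure D5:**
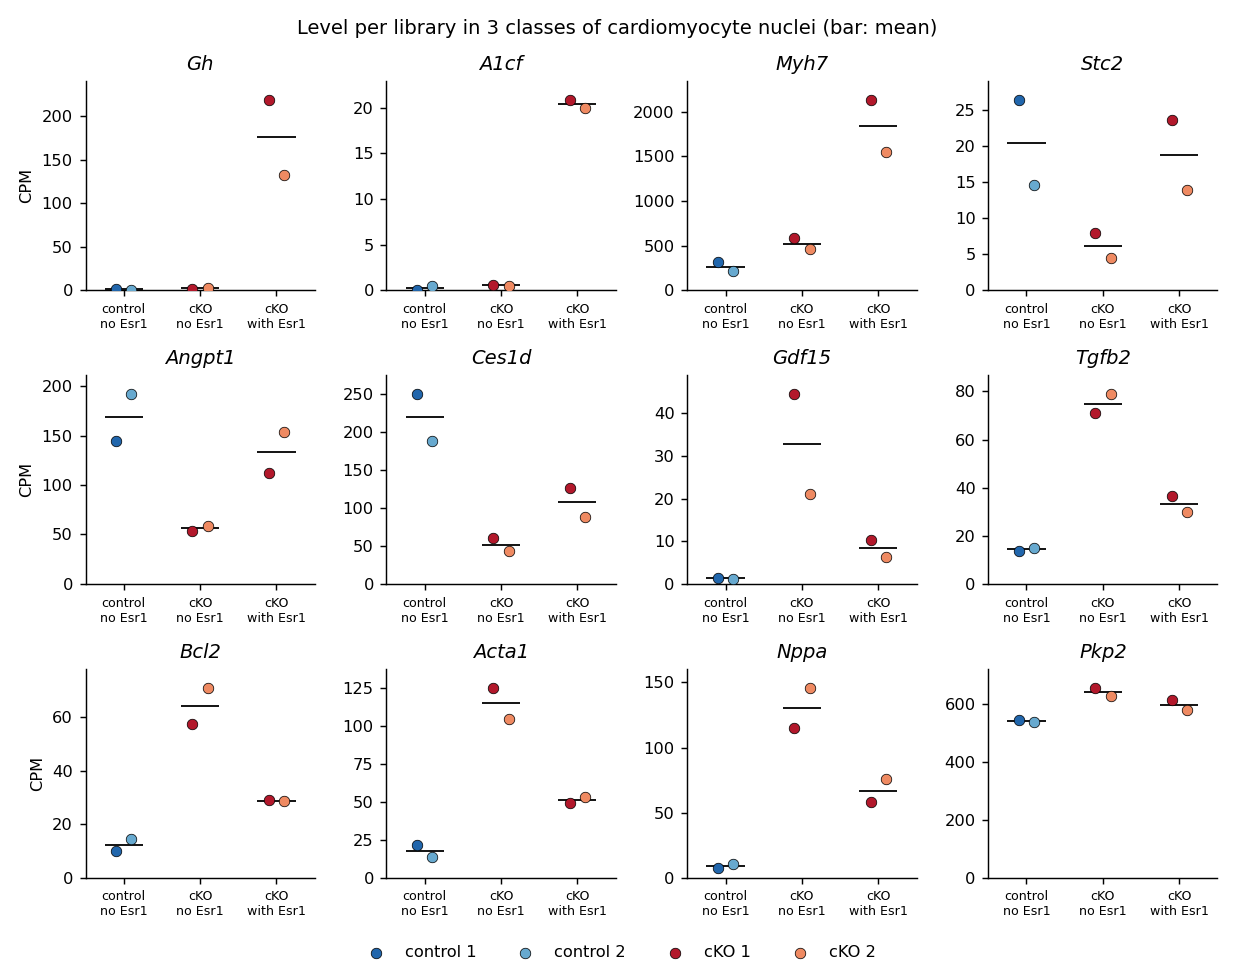
CPM of 12 genes in control nuclei without Esr1 UMIs and in cKO nuclei without and with Esr1, 1 point per library and a bar at the mean. Gh, A1cf and Myh7 are highest with Esr1, whereas Gdf15, Tgfb2, Bcl2, Acta1 and Nppa are highest in cKO nuclei without Esr1 and lowest in control nuclei.

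Precision was set by 2 libraries and by the size of the sums. The 4 sums held 3263924 and 1636427 UMIs in cKO 1 and 6103314 and 2266529 in cKO 2, and the paired fit left 1 residual degree of freedom, so the spread of each gene leaned on that of all genes. Smaller differences between the classes may not have been detectable. Which mouse of a pool a nucleus came from is not given.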

How the data were processed

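Each deposited matrix holds the raw UMI counts of 1 library, whole numbers with genes as features, per the file headers. The build mm10 is named in the submitters' processing notes. Aligner, counting program, annotation and strand handling: not given in the sources used here. Of 44628 gene identifiers, 27169 matched GENCODE M21, which gave the coordinates. Library totals ran from 13491201 to 40536562 counts.

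Groups came from the sample titles. Counts without Esr1 were summed per library and class and tested with edgeR 4.0.16 (R 4.3.3; TMM, filterByExpr, quasi-likelihood test), with Benjamini-Hochberg adjustment over all genes tested and a threshold of 0.05. CPM use raw totals and log2 fold changes TMM factors; an SE is the size of the log2 fold change divided by the root of F. The comparison with against without Esr1 took the library as a block, since both sums come from the same pool: their deviations correlated at 0.39 over 12393 genes. The comparisons with control had no block. Alternatives included DESeq2 1.42.0, other gates, depths and filters, and removal of the 6% highest Scrublet scores (scanpy 1.11.5); the results above keep all nuclei. The scripts were tested on simulated data.

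The classes, genes and lists were chosen with earlier results of these data known. Named are the 12 largest changes in each direction that passed with the same sign and at least 30 UMIs in the higher class in each library, and passed in nuclei with few markers of other cell types too. Up to 4 in each direction that missed the last condition were added. Pkp2, Nppa, Nppb, Ankrd1, Gh and Myh7 are always named, and Esr1, gate and mitochondrial genes never. Nothing says that the libraries came from separate litters or days, so p-values measure the spread between these sums. Results for some called genes are not reported here.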

Additional observations from a re-analysis of the deposited data

Results flagged for a closer look

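Gated control nuclei with at least 3 Esr1 UMIs (29 in control 1 and 57 in control 2) were too few for the planned test, and their values lie outside the comparisons above. They held more Gh than control nuclei without Esr1 UMIs. Gh measured 36.7 CPM (5 UMIs, 95% Poisson interval 11.9 to 85.6) against 1.87 in control 1 and 13.8 CPM (5 UMIs, 4.47 to 32.1) against 0.445 in control 2. Myh7 measured 477 CPM (368 to 608) against 316 in control 1 and 441 CPM (375 to 514) against 213 in control 2. In both libraries the intervals lay above the level without Esr1, as counting error only. Gdf15 gave 0 UMIs in each, for which the 95% Poisson interval reaches 27.1 CPM in control 1 and 10.2 in control 2.

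The cKO nuclei with 1 or 2 Esr1 UMIs, which entered no test, held the most Nppa of the 5 ranges of Esr1: 209 CPM in cKO 1 and 228 CPM in cKO 2, against 115 and 146 in nuclei without Esr1. With each nucleus thinned to 3000 UMIs the values were 184 against 115 CPM in cKO 1 and 137 against 139 in cKO 2, so the higher level held in cKO 1 only. The shares of nuclei with a Nppa UMI were 22.3% against 18.5% and 20.5% against 21.9%.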

How the results depend on the processing

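With against without Esr1, the counts of genes higher and lower (88 and 91) were 164 and 178 at 10 or more Esr1 UMIs, 163 and 203 without the highest doublet scores, 149 and 204 with raw totals, and 160 and 201 with the richest nucleus of each gene left out, a setting added after seeing the data. They were 46 and 59 in nuclei under 6000 UMIs, 22 and 20 at 6000 or more, 23 and 17 with DESeq2, and 3 and 0 with no replicate block. At a gate of 8% they were 0 and 0 among 1210 genes tested, and a gate of 12% left no nuclei in a class. Higher genes numbered 57 after thinning and 213 with no filter on low counts. Lower genes numbered 139 at 1 or more Esr1 UMIs and 142 with few markers of other cell types. In nuclei with few such markers, higher and lower were 21 and 19 with DESeq2, 3 and 1 with no replicate block, 40 and 54 at a limit of 0.2%, and 189 higher with no filter.

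Against control, the replicate block gave 1301 higher and 1447 lower with Esr1 and 1042 and 1167 without; replicate numbers there pair only 2 libraries (correlation of deviations 0.43 and 0.37), as a hint. Without a filter, nuclei with Esr1 had 189 and 285, and nuclei without had 511 lower. At a gate of 8% they had 5 and 1, and 12 and 13. Leaving out a library gave 99 to 160 higher and 130 to 210 lower with Esr1, and 209 to 283 and 272 to 348 without; the lone library left in a group is then assumed to vary like the other group. For nuclei with Esr1 the same left the log2 fold change of Stc2 between -0.56 and 0.28, above 0 without cKO replicate 2 (0.19) and control replicate 1, that of ENSMUSG00000135968 between -1.29 and 0.061, above 0 without control replicate 1, and that of Gm56926 between -0.57 and 0.27, above 0 without control replicate 2. At 8% Pkp2 turned to -0.13. Myh7 without Esr1 turned to -0.68 at 8%. The cause of these changes was not tested.

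Gh and A1cf stayed past the threshold in each setting that tested them, and Myh7 in all but the 8% gate. The other 24 named genes lost the call with no replicate block. Some settings did not test all 27. Under 6000 UMIs 17 kept the call and 10 lost it, and at 6000 or more 14 kept and 10 lost it. After thinning 21 kept it and 5 lost it (Efnb3, Gm15708, Gm36569, Gm36703 and Gm56926). At the 8% gate only 4 were tested, of which 0 kept the call. At 1% mitochondrial UMIs 23 kept it and 2 lost it. Leaving out a cKO library leaves no residual degrees of freedom for the paired test. All 27 kept their sign, but naming by the largest changes required the same sign in each library. Depth limits the genes with few UMIs, Chst8 and A1cf among them.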
